A study of Oryza sativa with 36 samples.

Results

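The Aux/IAA and ARF genes of rice (Oryza sativa) were followed across 6 meristem tissues and 2 cultivars. The members were 56 loci taken from a fixed list of identifiers, 31 of the Aux/IAA family and 25 of the ARF family, and 55 of them had a row in a table of 55801 loci. LOC_Os01g48450, listed as Aux/IAA, was the member with no row. Expression was measured in 35 CEL-Seq2 libraries, a method that counts each captured RNA molecule once, through a barcode (UMI) added at its 3′ end. NIL-MP3 gave 18 libraries and Takanari 17. NIL-MP3 is, by its name, a near-isogenic line. Takanari is an indica cultivar bred for high yield. No other allele is given in the labels. Each cultivar was sampled as AM1, AM2, AM3, AM4, AM5 and SAM, with 3 libraries a group and 2 for Takanari SAM. The sample descriptions name the tissue of all libraries as axillary meristems and do not say what AM, its number or SAM stands for, although SAM is the usual abbreviation of shoot apical meristem. All plants shared short days of 10 h light at 27 °C and 14 h dark at 25 °C, at 70% humidity. Plant age, and whether libraries of a group came from separate or pooled plants, are not stated.

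Aux/IAA proteins are repressors of the auxin response. They bind ARF proteins, transcription factors that recognise auxin response elements in promoters, and hold their targets down. When auxin is present, receptors of the TIR1/AFB type mark Aux/IAA proteins for degradation and the ARFs are released; some ARFs activate and others repress transcription. Many Aux/IAA genes are themselves induced by auxin, so both families are often read together in the meristems that form shoots and their branches. The identifiers in the count table are not paired with gene names here, so each locus is given by its identifier and its family, with no role of its own.

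Library depth limited what could be seen of these genes. Total counts ran from 77362 to 224706 per library, with a median of 143050, and AM5 had the lowest mean total, 110750 ± 29303 (SD, n = 6). The unit below is CPM, counts scaled to 1000000 per library over the tested loci, after TMM scaling. A CPM value counts 3′ tags and is not divided by transcript length. A count of 0 allows up to 3 counts, which is 50.6 CPM in the shallowest library and 15.2 CPM in the deepest, for counting error only.

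Of the 55 members with a row, 6 had no count in any library and 26 others fell below the filter on low counts. The members at 0 were the Aux/IAA loci LOC_Os02g49160, LOC_Os06g24850, LOC_Os11g11420 and LOC_Os11g11430 and the ARF loci LOC_Os04g59430 and LOC_Os07g08520. Tests could be made for 23 members, 8 Aux/IAA and 15 ARF, among 6943 loci tested. Untested were 22 of 30 rows of the Aux/IAA family and 10 of 25 of the ARF family. Untested loci still carried 13.6% of all Aux/IAA counts and 7.57% of all ARF counts.

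A few loci held most of each family's RNA. Summed over the 35 libraries, Aux/IAA loci had 5035 counts and ARF loci 9377. LOC_Os01g13030 held 22.6% of the Aux/IAA counts, LOC_Os02g57250 15.3% and LOC_Os05g14180 14.3%. Among ARF loci, LOC_Os01g70270 held 25.0%, LOC_Os12g29520 14.1% and LOC_Os11g32110 11.6%. Of the Aux/IAA loci, 10 held 90% of the family's counts, and of the ARF loci, 14 did. Mean CPM of the tested members ran from 47.0 to 259 in the Aux/IAA family and from 38.0 to 550 in the ARF family.

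Both families, summed over their loci, were lowest late in the AM series or from its middle on. Summed Aux/IAA expression averaged 1330 ± 165 CPM in AM1, 1126 ± 82.2 CPM in AM2, 1130 ± 205 CPM in AM3, 1116 ± 179 CPM in AM4 and 935 ± 162 CPM in AM5, beside 1368 ± 125 CPM in SAM (SD, n = 6 for each AM tissue and 5 for SAM). The step down to AM5 came after 3 tissues that differed by less than their spread. Summed ARF expression averaged 2546 ± 139 CPM in AM1, 2193 ± 159 CPM in AM2, 1977 ± 192 CPM in AM3, 1983 ± 202 CPM in AM4 and 2045 ± 214 CPM in AM5, beside 2464 ± 196 CPM in SAM. ARF sums were therefore lowest from AM3 to AM5, with means closer to each other than 1 SD.

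The AM5 sums were 1.43-fold lower than the AM1 sums for Aux/IAA (log2 ratio -0.52) and 1.25-fold lower for ARF (log2 ratio -0.32). The SD of libraries within a group was 0.18 (Aux/IAA) and 0.13 (ARF) on the same log2 scale. Library numbers run in sets (1 to 6, 7 to 12 and 13 to 18 in each cultivar) with 1 library of every tissue, except that the SAM library of Takanari 13 to 18 was not analysed here. Without LOC_Os01g13030 the Aux/IAA log2 ratio was -0.35, and without LOC_Os01g70270 that of ARF was -0.31. The shallowest 2 libraries are both AM5, and without them the ratios were -0.43 for Aux/IAA and -0.27 for ARF. AM5 lay below AM1 in 6 of 6 sets and below SAM in 5 of 5 sets, in both families. The ratio of Aux/IAA to ARF counts, which does not depend on library scaling, averaged 0.459 ± 0.074 in AM5, 0.524 ± 0.074 in AM1 and 0.556 ± 0.032 in SAM. It was lower in AM5 than in SAM in 5 of 5 sets, but higher in AM5 than in AM1 in 2 of 6 sets. In NIL-MP3 numbers 7 to 12 it was 0.561 in AM5 and 0.564 in SAM. Without the most abundant member of each family, its log2 change for AM5 over AM1 was -0.04, against -0.19 with all members. For all AM tissues over SAM that change was 0.02, against -0.09 with all members. In bulk tissue, fewer cells of a type and less RNA per cell cannot be told apart.

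**Figure D1:**
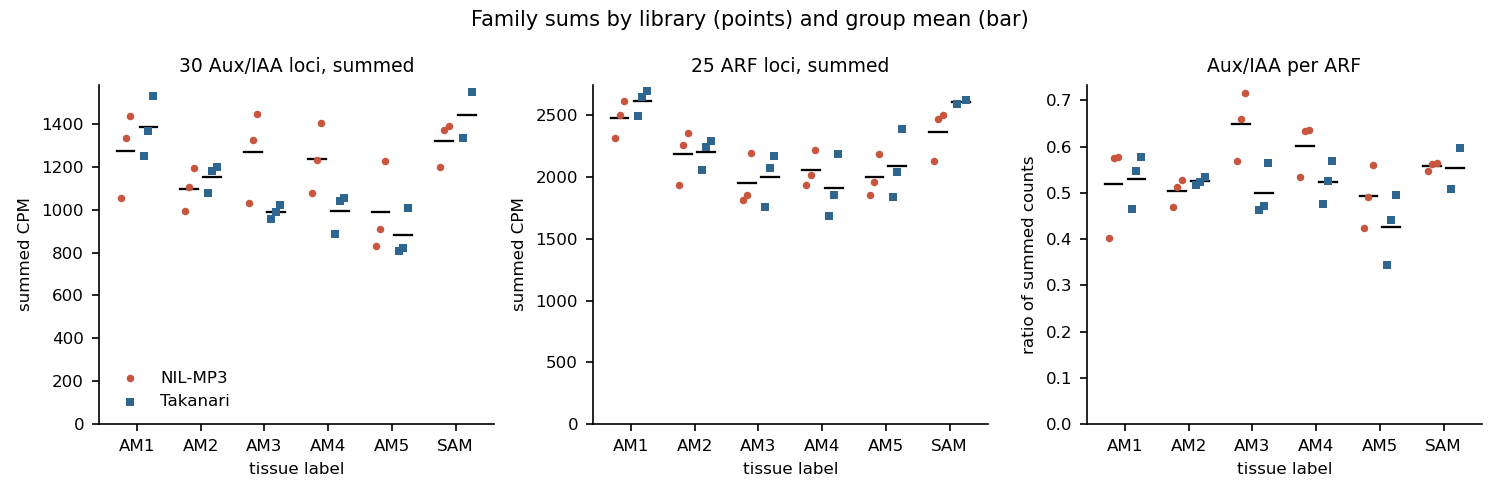
Summed CPM of the Aux/IAA loci (left), of the ARF loci (middle) and the ratio of their summed counts (right) by tissue label, with 1 point a library (circles NIL-MP3, squares Takanari) and a bar at each group mean. Aux/IAA sums averaged 935 CPM in AM5 and 1330 CPM in AM1, while ARF sums were near 2000 CPM from AM3 to AM5.

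Across AM1 to AM5, 6 of the 23 tested members fell and none rose. The 3 Aux/IAA loci were LOC_Os01g13030, LOC_Os05g14180 and LOC_Os02g13520, and the 3 ARF loci were LOC_Os12g29520, LOC_Os11g32110 and LOC_Os01g48060. The test was a linear slope per AM label number, averaged over the cultivars, by edgeR's quasi-likelihood F test with Benjamini-Hochberg adjustment over all 6943 loci. Of all tested loci, 19.2% passed it in either direction and 9.81% with a negative slope. The members' share of 26.1% stands beside that 19.2%. Over AM1 to AM4 alone, an analysis added after the data were examined, 4 members passed, all falling, beside 11.8% of the loci tested there: LOC_Os01g13030, LOC_Os01g48060, LOC_Os01g70270 and LOC_Os05g48870. The median slope over AM1 to AM5 was -0.07 on the log2 scale for the 8 Aux/IAA loci and -0.08 for the 15 ARF loci, against 0.00 for all tested loci.

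LOC_Os01g13030, the Aux/IAA locus with the most counts, fell furthest beyond its error. Its lowest, median and highest values were 118, 152 and 220 CPM in the 6 AM5 libraries, against 196, 335 and 521 CPM in the 6 AM1 libraries. NIL-MP3 AM5 replicate 1, at 220 CPM, was the single AM5 library inside the AM1 range. Its slope was -0.27 ± 0.051 (SE) per label number, or 2.14-fold over the series, with an edgeR adjusted p of 4.79e-05. The direct difference AM5 minus AM1 was -1.16 ± 0.23 on the log2 scale (edgeR adjusted p = 0.000243), and AM5 was lower in 6 of 6 sets. Its share of the Aux/IAA counts was 17.1 ± 4.9% in AM5 and 26.1 ± 5.8% in AM1 (SD, n = 6 each).

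LOC_Os05g14180, also Aux/IAA, had its low point in AM5, with the other AM means at 172 CPM or more. Its mean was 211 CPM in AM1, 182 CPM in AM2, 172 CPM in AM3, 176 CPM in AM4 and 90.8 CPM in AM5. The AM5 libraries spanned 31.4 to 166 CPM with a median of 71.5, against 145 to 272 CPM with a median of 208 in AM1, so the ranges overlapped. AM5 minus AM1 was -1.19 ± 0.29 on the log2 scale (edgeR adjusted p = 0.0029), lower in 6 of 6 sets. The slope over all 5 AM tissues was -0.24 ± 0.064 (edgeR adjusted p = 0.00386), and over AM1 to AM4 alone it was -0.08 (edgeR adjusted p = 0.55).

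LOC_Os02g13520, a scarcer Aux/IAA locus, peaked in AM2 at 71.2 CPM. Its AM5 libraries spanned 9.45 to 38.9 CPM with a median of 31.7, against 23.2 to 97.1 CPM with a median of 50.5 in AM1. The ranges overlapped, and the slope of -0.30 ± 0.11 passed narrowly (edgeR adjusted p = 0.0448). It missed the threshold when any 1 of 17 of the 35 libraries was left out, with slopes from -0.33 to -0.26, and also under DESeq2, under limma with quality weights or with the sets as a random effect, and with no filter on low counts. The call was also lost without the 2 libraries of lowest total, both AM5 (-0.33), and without the AM5 libraries together (-0.30). So it was without any NIL-MP3 set of library numbers (-0.32 to -0.29) and without Takanari numbers 13 to 18 (-0.25).

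Among ARF loci, LOC_Os12g29520 ranked next to the top of its family and fell with the series. Its AM5 libraries spanned 124 to 314 CPM with a median of 210, against 293 to 507 CPM with a median of 329 in AM1. AM5 was lower in 6 of 6 sets. The slope was -0.17 ± 0.048 (edgeR adjusted p = 0.00867), or 1.59-fold over the series, and AM5 minus AM1 was -0.69 ± 0.22 (edgeR adjusted p = 0.0233). That last call was lost without NIL-MP3 AM5 replicate 13 (-0.52), NIL-MP3 AM1 replicate 17 (-0.59), Takanari AM5 replicates 1 (-0.63) or 13 (-0.62), or Takanari AM1 replicate 17 (-0.67). The slope call was lost without NIL-MP3 AM5 replicate 13 (-0.13) and without the AM5 libraries together (-0.11). It was also lost without NIL-MP3 library numbers 13 to 18 (-0.10) and without Takanari numbers 13 to 18 (-0.15).

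The other falling ARF loci differed in shape. LOC_Os11g32110 averaged 269, 264 and 257 CPM in AM1, AM2 and AM3 and stood at 196 and 189 CPM in AM4 and AM5; its slope was -0.15 ± 0.050 (edgeR adjusted p = 0.0307). LOC_Os01g48060 was highest in AM1, at 92.8 ± 50.8 CPM, and lowest in AM3, at 29.9 ± 7.4 CPM (SD, n = 6 each). AM2 lay between them at 53.6 ± 35.7 CPM, and its libraries overlapped those of AM1. Its slope was -0.29 ± 0.10 (edgeR adjusted p = 0.0397). Both were lost under DESeq2. LOC_Os01g48060 was also lost under limma, with quality weights (adjusted p = 0.0729) and with the sets as a random effect (adjusted p = 0.0588). Leaving out single libraries ended the call for 13 of 35 libraries at LOC_Os01g48060 (slopes from -0.36 to -0.20 over all 35). At LOC_Os11g32110 it did so for NIL-MP3 AM5 replicates 7 and 13, Takanari AM1 replicates 5 and 17, Takanari AM4 replicate 8 and Takanari AM5 replicate 13, with slopes of -0.14 to -0.13. LOC_Os11g32110 was also lost without the AM5 libraries together (-0.14). Without NIL-MP3 library numbers 7 to 12 (-0.13) or 13 to 18 (-0.13), or Takanari numbers 13 to 18 (-0.10), it was lost as well. LOC_Os01g48060 was lost without any NIL-MP3 set of library numbers (-0.31 to -0.26) and without Takanari numbers 13 to 18 (-0.28).

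**Figure D2:**
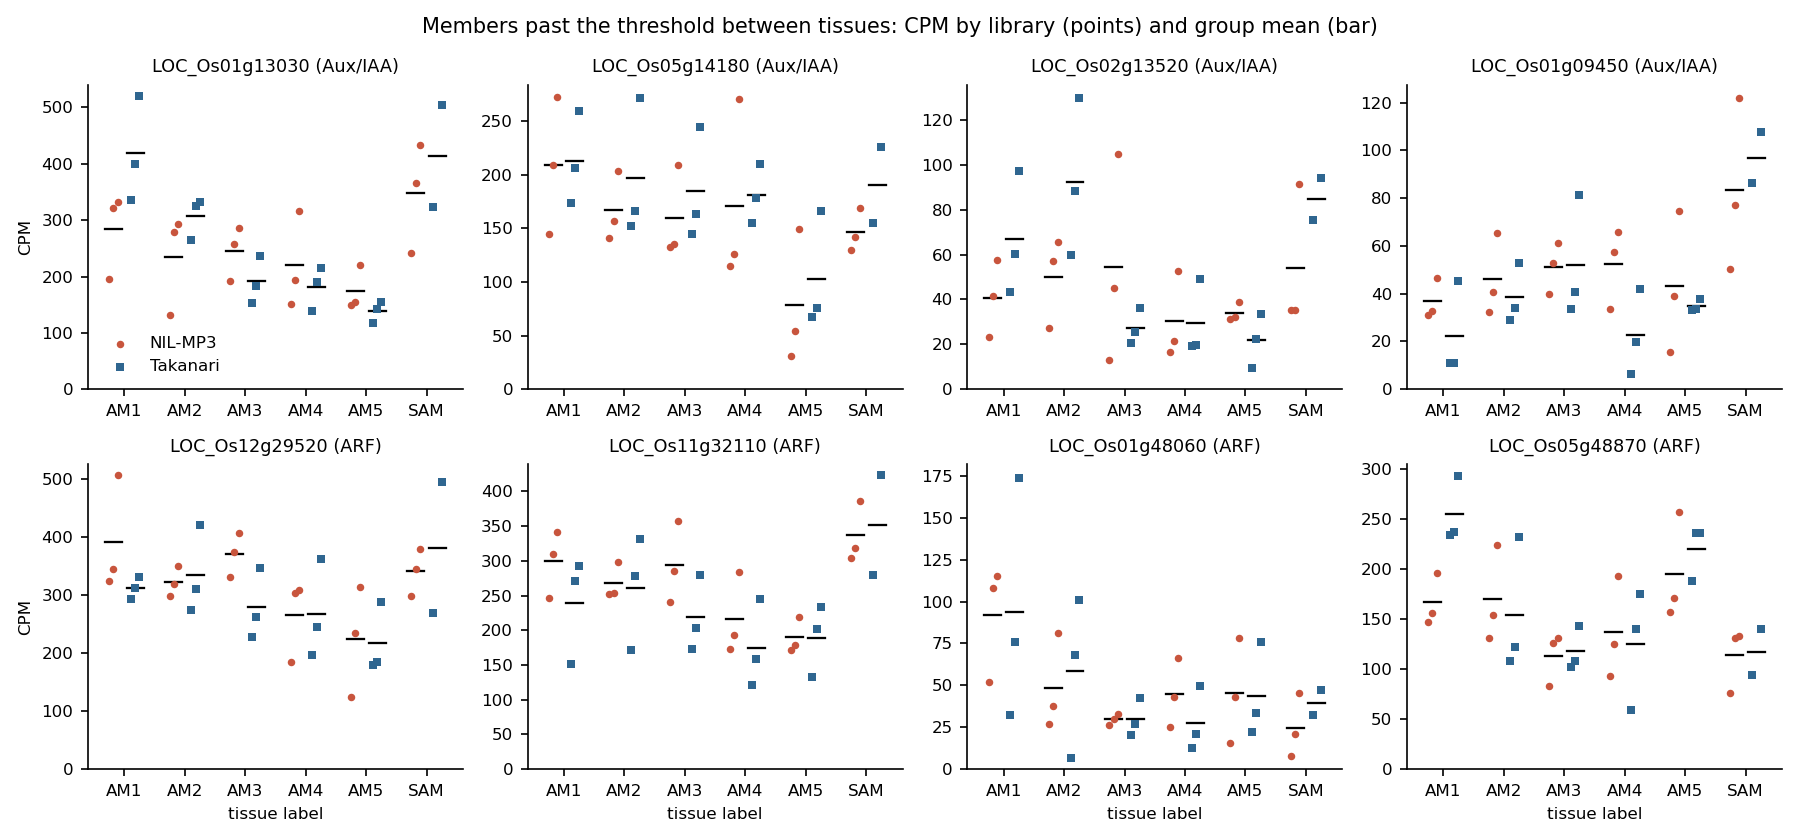
CPM by tissue label for the 8 members past the threshold in a comparison between tissues, with 1 point a library (circles NIL-MP3, squares Takanari) and a bar at each group mean. LOC_Os01g13030 falls over the series to 118 to 220 CPM in AM5, whereas LOC_Os05g14180 drops at AM5 and LOC_Os05g48870 is low in the middle of the series.

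The most abundant ARF locus, LOC_Os01g70270, kept a nearly fixed share of its family. It held between 23.9% and 25.6% of ARF counts in every tissue. Its mean was 512 ± 108 CPM in AM5 and 652 ± 66.2 CPM in AM1, and its slope of -0.09 ± 0.037 missed the threshold (edgeR adjusted p = 0.0855). The largest positive slope of any tested member was that of LOC_Os02g06910, an ARF locus singled out after its values were seen, 0.27 ± 0.12 (edgeR adjusted p = 0.117). It averaged 60.7 ± 36.1 CPM in AM5 and 26.6 ± 11.2 CPM in AM1, values near the counting floor. LOC_Os06g22870 (Aux/IAA) averaged 59.1 ± 38.6 CPM in AM5 and 90.0 ± 38.2 CPM in AM1, and LOC_Os04g56850 (ARF) 78.0 ± 40.0 CPM and 107 ± 49.2 CPM in the same tissues. Neither of their slopes passed (edgeR adjusted p = 0.259 and 0.227).

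The remaining members among the 6 most abundant of each family also had slopes that missed the threshold. LOC_Os05g08570 (Aux/IAA) averaged 84.9 ± 25.0 CPM in AM5 and 101 ± 32.8 CPM in AM1, with a slope of 0.00 ± 0.064 (edgeR adjusted p = 0.995). LOC_Os05g48590 (Aux/IAA) averaged 132 ± 37.8 CPM in AM5 and 125 ± 63.0 CPM in AM1, with a slope of 0.07 ± 0.071 (edgeR adjusted p = 0.534). LOC_Os04g36054 (ARF) averaged 115 ± 44.1 CPM in AM5, 156 ± 61.6 CPM in AM1 and 177 ± 24.4 CPM in SAM. Its slope was -0.08 ± 0.064 (edgeR adjusted p = 0.399), and AM5 minus SAM was -0.63 ± 0.29 (edgeR adjusted p = 0.181).

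Between the ends of the series, 3 members were called, all lower in AM5. They were LOC_Os01g13030, LOC_Os05g14180 and LOC_Os12g29520, or 13% of the tested members beside 13.3% of all tested loci in either direction and 6.78% called lower in AM5. The median AM5 minus AM1 difference was -0.36 on the log2 scale in the Aux/IAA family and -0.34 in the ARF family, and 0.00 over all tested loci. In the ARF family 11 of 15 loci, and in the Aux/IAA family 5 of 8, had a negative difference.

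**Figure D3:**
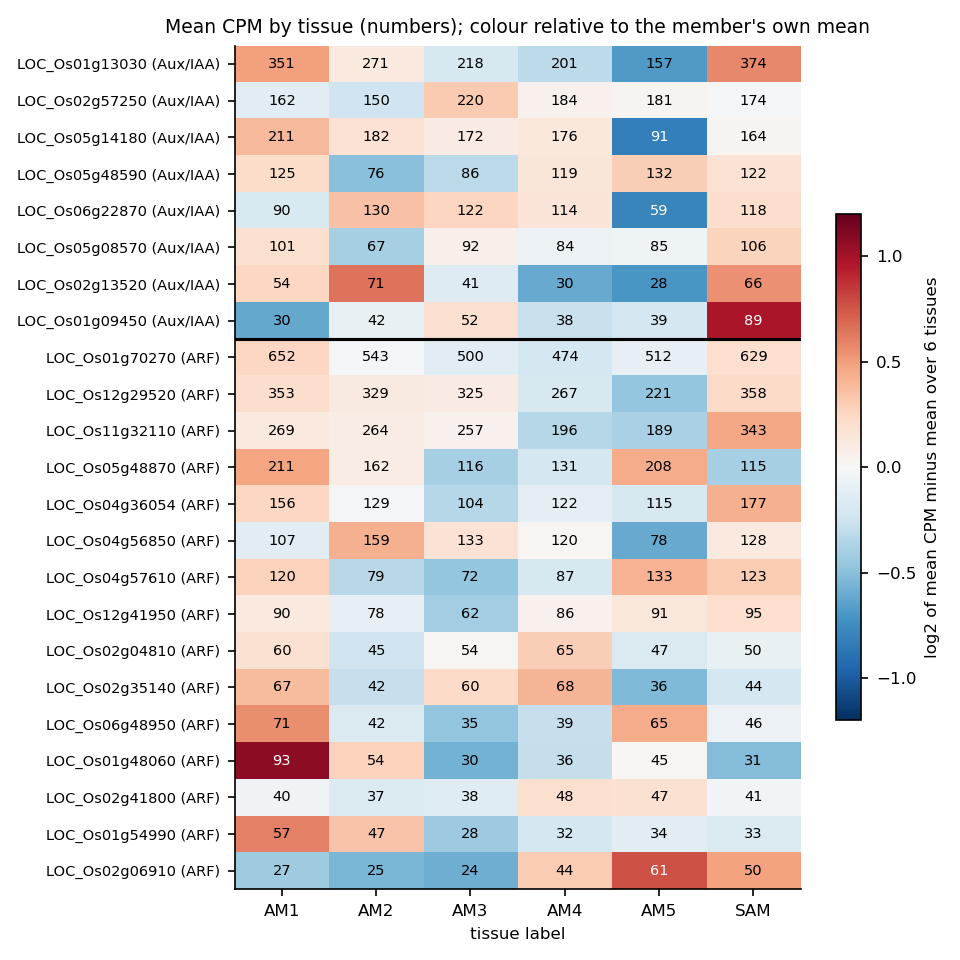
Mean CPM of the 23 tested members in each tissue (numbers), with Aux/IAA loci above the line and ARF loci below, each coloured by its log2 level relative to its own mean over 6 tissues. The lowest cell of LOC_Os05g14180 and of LOC_Os06g22870 is in AM5, at 91 and 59 CPM, while 7 ARF loci have their lowest cell in AM3.

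Many ARF loci had their low point in AM3. Of the 15 tested ARF loci, 7 had their lowest mean of the 6 tissues there (46.7%), against 13.2% of all tested loci. Some of these low points were near ties. LOC_Os02g06910 averaged 23.9 ± 15.4 CPM in AM3 and 24.5 ± 7.8 CPM in AM2. LOC_Os01g48060 averaged 29.9 ± 7.4 CPM in AM3 and 30.7 ± 16.7 CPM in SAM. Of the 8 Aux/IAA loci, 4 were lowest in AM5 (50%), against 24.1% of all tested loci. LOC_Os05g48870, an ARF locus, averaged 211 ± 55.2 CPM in AM1, 162 ± 53.3 CPM in AM2, 116 ± 21.9 CPM in AM3, 131 ± 50.05 CPM in AM4 and 208 ± 40.7 CPM in AM5 (SD, n = 6 each), with SAM as low as AM3 at 115 ± 28.2 CPM. LOC_Os04g57610, also ARF and singled out after its values were seen, averaged 120.3 CPM in AM1, 72.0 CPM in AM3 and 133 CPM in AM5. A contrast of the mean of AM1 and AM5 minus AM3 was chosen after these values were seen. It gave 0.83 ± 0.23 for LOC_Os05g48870 (edgeR adjusted p = 0.0588) and 0.80 ± 0.26 for LOC_Os04g57610 (edgeR adjusted p = 0.149). No member passed by edgeR, DESeq2 or limma with quality weights, beside 0.706% of all tested loci by edgeR. With the sets as a replicate block (3 or 6 levels), with the sets as a random effect in limma, or with the stricter filter (minimum count 20, 12 members tested), 1 member passed, LOC_Os05g48870. By edgeR with no block, 8 members had an unadjusted p under 0.05, 6 of them ARF, against 12.1% of all tested loci. Of these 8, 6 were lower in AM3 (5 ARF and 1 Aux/IAA) and 2 were higher in AM3 (1 ARF and 1 Aux/IAA).

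Against SAM, the AM tissues as a whole were lower at 2 Aux/IAA loci and at no ARF locus past the threshold. The contrast set the average of the 10 AM groups against that of the 2 SAM groups. Of all tested loci, 1.35% passed it, and 0.965% passed it with a lower level in AM. All 8 Aux/IAA loci had a negative difference, with a median of -0.30 on the log2 scale, and 8 of 15 ARF loci did, with a median of -0.17. The median over all tested loci was 0.00.

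LOC_Os01g09450, an Aux/IAA locus of low abundance, was lower in AM. Its lowest, median and highest AM values were 6.35, 38.3 and 81.3 CPM over 30 libraries. The SAM libraries stood at 122, 77.3 and 50.5 CPM in NIL-MP3 and at 86.1 and 108 CPM in Takanari. The groups overlapped, since NIL-MP3 SAM replicates 12 and 18 lay inside the AM range. The difference AM minus SAM was -1.17 ± 0.30 on the log2 scale (edgeR adjusted p = 0.0306), with the AM mean lower in 5 of 5 sets. The slope of this locus over the AM series did not pass (slope 0.05 ± 0.11, edgeR adjusted p = 0.794).

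LOC_Os01g13030 was also lower in AM, where its values ran from 118 to 521 CPM with a median of 218. Its SAM libraries stood at 434, 366 and 243 CPM in NIL-MP3 and at 323 and 505 CPM in Takanari. AM minus SAM was -0.72 ± 0.17 on the log2 scale (edgeR adjusted p = 0.014). LOC_Os11g32110 came closest among ARF loci (-0.58 ± 0.17, edgeR adjusted p = 0.0561). Neither Aux/IAA call held without the AM5 libraries (-1.19 for LOC_Os01g09450 and -0.59 for LOC_Os01g13030). Both were also lost without NIL-MP3 SAM replicate 12 (-1.19 and -0.70), NIL-MP3 SAM replicate 6 (-1.002 and -0.64) or Takanari SAM replicate 12 (-1.08 and -0.53), and that of LOC_Os01g09450 without Takanari SAM replicate 6 (-1.24).

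Set against SAM on its own, AM5 differed at 4 members. These were 17.4% of the tested members, beside 10.2% of all tested loci. Of all tested loci, 5.53% were called higher in AM5 and 4.68% lower. LOC_Os01g13030 was lower in AM5, at 118 to 220 CPM against 243 to 505 CPM in SAM, with no overlap (-1.29 ± 0.24, edgeR adjusted p = 0.000101). LOC_Os11g32110 was lower too, at 132 to 233 CPM in AM5 against 280 to 424 CPM in SAM, again with no overlap (-0.89 ± 0.23, edgeR adjusted p = 0.00651). LOC_Os12g29520 had 124 to 314 CPM in AM5 against 269 to 495 CPM in SAM (-0.72 ± 0.23, edgeR adjusted p = 0.0284).

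One member was higher in AM5 than in SAM. LOC_Os05g48870 (ARF) spanned 157 to 257 CPM in AM5. Its SAM libraries stood at 76.1, 134 and 131 CPM in NIL-MP3 and at 94.2 and 140 CPM in Takanari, all below every AM5 library. The difference was 0.87 ± 0.28 on the log2 scale (edgeR adjusted p = 0.0309). AM1 minus SAM was of similar size at this locus, 0.83 ± 0.27, but did not pass (edgeR adjusted p = 0.361). The median of AM5 minus SAM was -0.91 over the 8 Aux/IAA loci, 0.10 over the 15 ARF loci and 0.00 over all tested loci.

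Those AM5 minus SAM calls that rested on single libraries were as follows. The call of LOC_Os05g48870 was lost without NIL-MP3 AM5 replicate 13 (0.73), NIL-MP3 SAM replicate 6 (0.76), Takanari AM5 replicates 1 (0.86) or 13 (0.82), or Takanari SAM replicate 12 (0.70), and with no filter on low counts (0.76). LOC_Os12g29520 lost its call without NIL-MP3 AM5 replicate 13 (-0.54), NIL-MP3 SAM replicate 6 (-0.69), Takanari AM5 replicates 1 (-0.67) or 13 (-0.66), or Takanari SAM replicate 6 (-0.49), and under DESeq2 (-0.71). LOC_Os11g32110 lost its call without Takanari SAM replicate 12 (-0.74), and LOC_Os01g13030 kept its call without any 1 library.

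**Figure D4:**
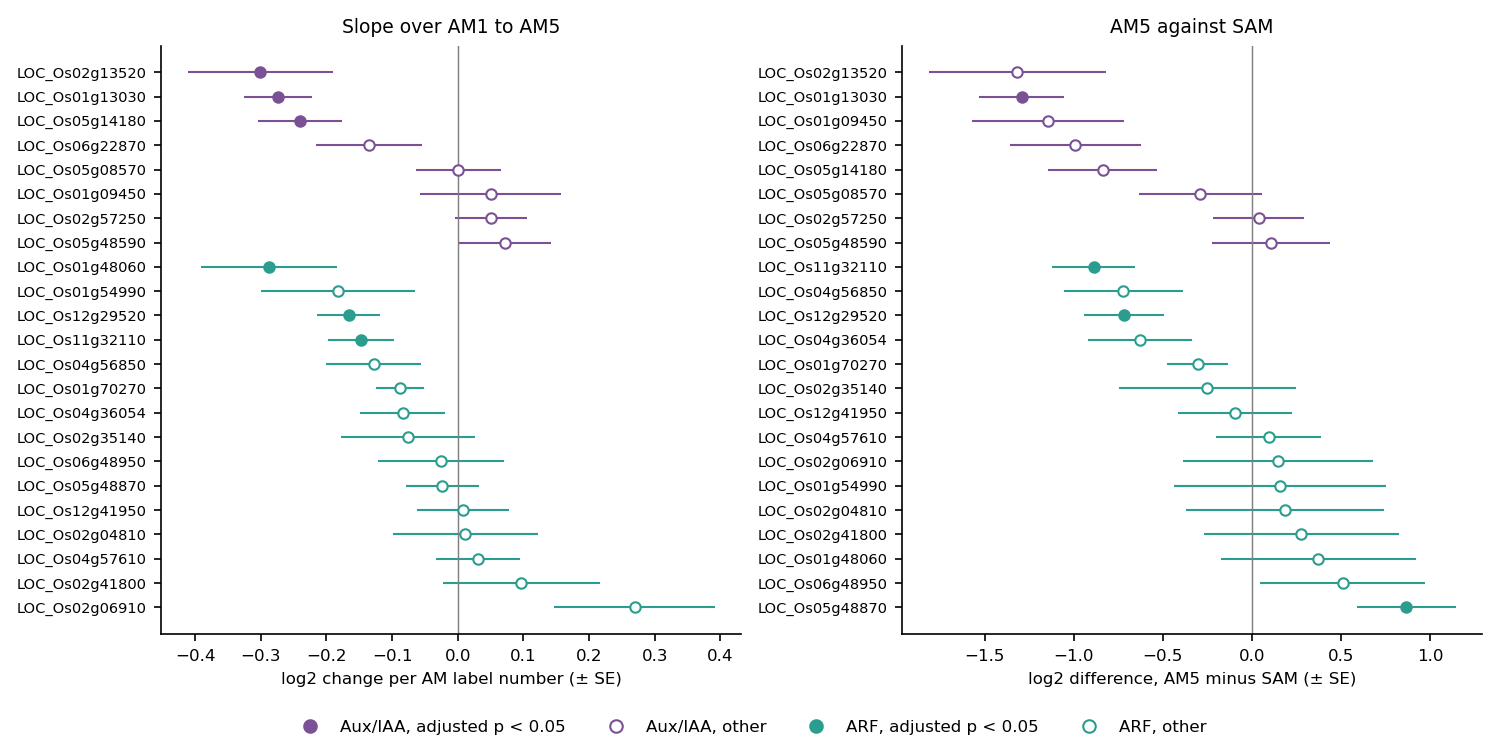
Log2 slope per AM label number (left) and log2 difference AM5 minus SAM (right) with SE for the 23 tested members, Aux/IAA in purple and ARF in green, filled where the edgeR adjusted p is under 0.05. All 6 filled slopes are negative, and LOC_Os05g48870 is the single filled point on the positive side of the right panel, at 0.87.

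AM1 was the AM tissue whose family sums lay nearest to SAM. The comparisons of AM1, of AM5 and of all AM tissues with SAM share the SAM libraries. No member passed for AM1 minus SAM by edgeR, DESeq2 or limma, beside 0.144% of all tested loci by edgeR, and 3 members had an unadjusted p under 0.05, as did 6.93% of all tested loci. The Aux/IAA differences ran from -1.53 to 0.35 on the log2 scale and the ARF differences from -0.82 to 1.51, so the libraries do not show that the tissues are alike at these loci. The largest positive value was that of LOC_Os01g48060, with 32.6 to 174 CPM in AM1. Its SAM libraries stood at 7.61, 21.1 and 45.5 CPM in NIL-MP3 and at 32.3 and 47.1 CPM in Takanari.

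Between the cultivars, the family sums over all tissues differed by less than the spread between libraries. Summed Aux/IAA expression averaged 1199 ± 188 CPM over the 18 NIL-MP3 libraries and 1123 ± 224 CPM over the 17 Takanari libraries (mean ± SD). Summed ARF expression averaged 2174 ± 252 CPM in the NIL-MP3 libraries and 2215 ± 325 CPM in those of Takanari. Within single tissues, the Aux/IAA sums did not overlap in AM3 and AM4. In AM3 they ran from 1033 to 1448 CPM in NIL-MP3 (mean 1269 ± 214) and from 958 to 1021 CPM in Takanari (mean 990 ± 31.6). In AM4 they ran from 1076 to 1406 CPM in NIL-MP3 (mean 1238 ± 165) and from 889 to 1053 CPM in Takanari (mean 994 ± 91.8; SD, n = 3 for each). The ARF sums did not overlap in SAM, with 2133 to 2504 CPM in 3 NIL-MP3 libraries and 2590 to 2627 CPM in 2 Takanari libraries. Both sums overlapped in every other tissue, and none of these differences was tested. The ratio of Aux/IAA to ARF counts was 0.553 ± 0.079 in NIL-MP3 libraries and 0.507 ± 0.062 in Takanari libraries. It stood furthest apart in AM3, with means of 0.648 ± 0.074 for NIL-MP3 and 0.499 ± 0.056 for Takanari (n = 3 each). There the 3 NIL-MP3 libraries were at 0.569, 0.659 and 0.715 and the 3 Takanari libraries at 0.463, 0.471 and 0.564, with no overlap. This difference was not tested. The Aux/IAA sums include LOC_Os02g57250, described next, which was higher in every NIL-MP3 library of AM3 and AM4 than in any Takanari library there. With its CPM taken out, the cultivars overlapped in the Aux/IAA sums of AM3 and AM4 and in the AM3 ratio.

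LOC_Os02g57250, an Aux/IAA locus, was the single member past the threshold between the cultivars, beside 1.3% of all tested loci in either direction and 0.879% with a higher level in NIL-MP3. It was higher in NIL-MP3, with a lowest, median and highest value of 89.4, 221 and 324 CPM, against 79.5, 123 and 182 CPM in Takanari. The difference was 0.75 ± 0.14 on the log2 scale (edgeR adjusted p = 0.0011), and the cultivars overlapped over all tissues. In AM3 the NIL-MP3 libraries stood at 258, 288 and 324 CPM and the Takanari libraries at 135, 153 and 163 CPM. In AM4 they stood at 244, 245 and 269 CPM in NIL-MP3 and at 102, 109 and 133 CPM in Takanari. The groups did not overlap in AM1, AM3 or AM4, and overlapped in AM2, AM5 and SAM.

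The difference of LOC_Os02g57250 varied with the tissue within its error. On the log2 scale, the values from AM1 to AM5 were 0.59, 0.77, 0.94, 1.13 and 0.73, and the value for SAM was 0.31 ± 0.36. No single tissue passed over all tested loci by edgeR (0 of 6943 in each). The cultivar difference in AM minus that in SAM was 0.53 ± 0.39 (edgeR unadjusted p = 0.187), so a difference between tissues was not shown. Under limma with the sets fitted as a random effect, the locus missed the threshold (0.70, adjusted p = 0.0745). No set holds libraries of both cultivars, so the cultivars were compared across sets. The edgeR fit had no term for the sets, although libraries of a set within a cultivar deviated together. Its p-value for the cultivar difference of this locus may therefore be too small.

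The 15 ARF loci lay between -0.33 and 0.51 for NIL-MP3 minus Takanari, and none passed (lowest edgeR adjusted p = 0.441). The median difference was -0.10 for ARF, -0.07 for Aux/IAA and 0.01 for all tested loci. Of all tested loci, 13.8% had an unadjusted p under 0.05 in this contrast, and LOC_Os02g57250 was the single member among them.

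**Figure D5:**
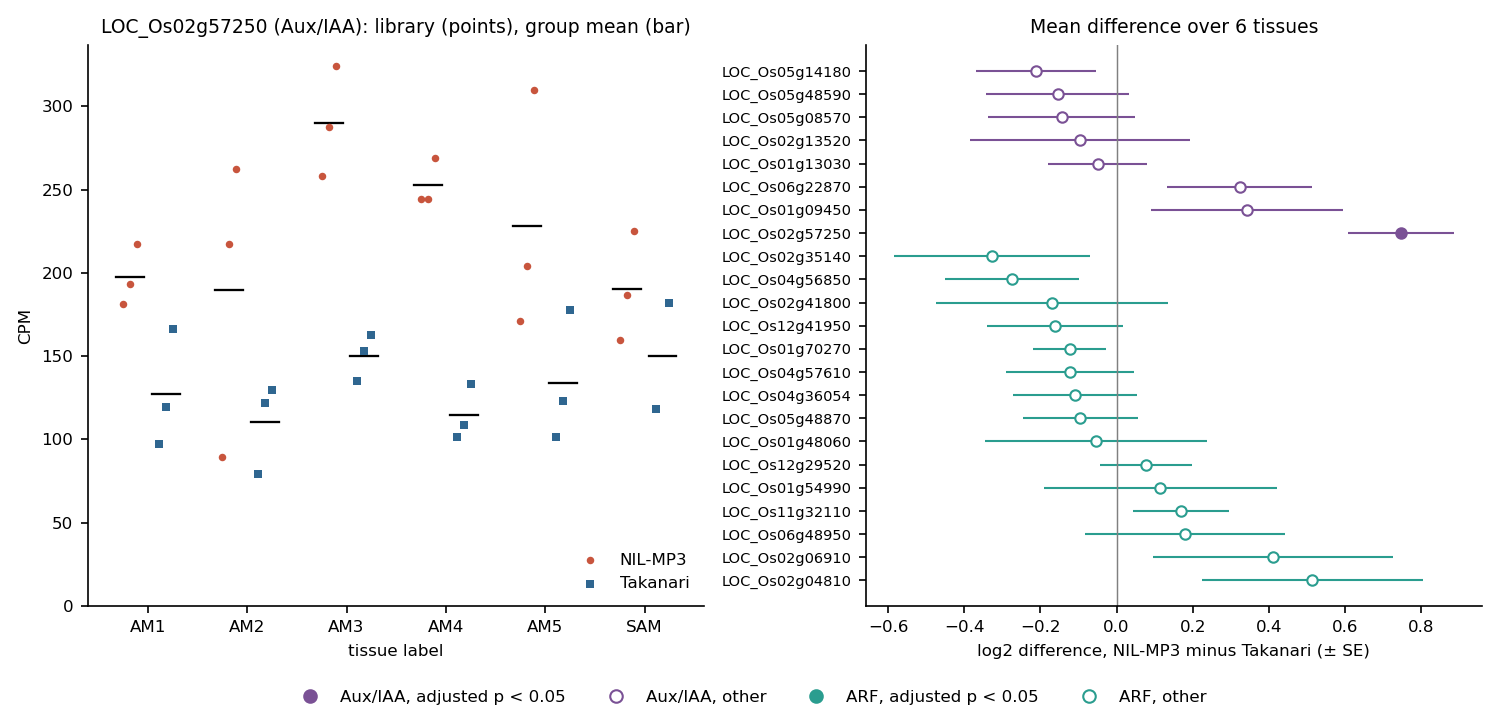
CPM of LOC_Os02g57250 by tissue label (left; circles NIL-MP3, squares Takanari, bars at group means) and the log2 difference NIL-MP3 minus Takanari with SE for the 23 tested members (right; purple Aux/IAA, green ARF). LOC_Os02g57250, at 0.75, is the single filled point, which marks an edgeR adjusted p under 0.05.

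No member was shown to change differently over the AM series in the cultivars. The slope in NIL-MP3 minus that in Takanari was called at 0% of all tested loci and at no member, and 1 member had an unadjusted p under 0.05 by edgeR, as did 4.26% of all tested loci. That member was LOC_Os01g13030, whose slope was -0.16 ± 0.072 in NIL-MP3 (edgeR adjusted p = 0.218) and -0.39 ± 0.073 in Takanari (edgeR adjusted p = 1.44e-04). The difference of these slopes was 0.23 ± 0.10 (unadjusted p = 0.0281, edgeR adjusted p = 0.991). LOC_Os02g13520 had a slope of -0.10 ± 0.15 in NIL-MP3 and -0.50 ± 0.16 in Takanari (edgeR adjusted p = 0.785 and 0.0293), with a difference of 0.39 ± 0.22 (edgeR adjusted p = 0.991).

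LOC_Os05g14180 and LOC_Os12g29520 had slopes in the cultivars that differed by less than their errors. The first had -0.27 ± 0.091 in NIL-MP3 and -0.21 ± 0.089 in Takanari, and the second -0.20 ± 0.067 in NIL-MP3 and -0.13 ± 0.069 in Takanari. The intervals of the differences, -0.31 to 0.19 and -0.26 to 0.12 (95%), leave room for unequal slopes. In NIL-MP3 alone 0 members passed by edgeR (5.07% of all tested loci) and 6 had an unadjusted p under 0.05 (18.2% of all tested loci). In Takanari alone 2 passed, both falling, beside 11.4% of all tested loci in either direction and 5.89% falling. They were LOC_Os01g13030 and LOC_Os02g13520. Only LOC_Os01g13030 passed under DESeq2, under limma with quality weights or with a stricter filter (minimum count 20, 12 members tested), and without Takanari AM1 replicates 11 or 17, AM2 replicate 16, AM4 replicate 8 or AM5 replicates 7 or 13. Over all libraries left out in turn, 1 to 3 members passed.

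Of the runs of loci that neighbour each other by identifier, 1 held a locus with more than 3 counts in any library. LOC_Os12g40890 averaged 60.0 ± 30.9 CPM in AM1 (41 counts), while LOC_Os12g40900 next to it averaged 3.07 ± 4.9 CPM there (2 counts). LOC_Os03g43410 had 9 of its 12 counts in AM1, and LOC_Os03g43400 had 2 counts in all libraries. LOC_Os11g11410 had 4 counts, at most 1 in any library, and LOC_Os11g11420 and LOC_Os11g11430 had none, a difference not detectable at this depth. How reads shared by such neighbours were counted is not given in the sources used here.

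LOC_Os03g53150, an Aux/IAA locus below the filter on low counts, thinned out along the series. It averaged 46.0 CPM in AM1, 15.8 CPM in AM2, 14.7 CPM in AM3, 7.55 CPM in AM4 and 3.14 CPM in AM5, from 29, 13, 11, 6 and 2 counts over 6 libraries each. SAM held 15 counts, or 19.2 CPM. With no filter on low counts, its slope was -0.77 ± 0.20 (edgeR adjusted p = 0.00301 over 24225 loci). It was singled out after its values were seen, which this p-value does not allow for, and its counts are near the floor. The filter leaves it out of the counts of members above.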

How the data were processed

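The members and lists were chosen with earlier results of these data known. The deposited values were whole-number UMI counts per locus, not normalized, with 1 column for each of 35 libraries. The submitters' processing notes list Bowtie2 and Subread 2.1 and do not say what each was used for. For the genome build, the annotation and the treatment of shared reads, nothing is given in the sources used here. Libraries were made from 100 pg of RNA with 11 to 15 PCR cycles, per the labels' protocols. A Takanari SAM library listed as number 18 was left out by the submitters.

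Loci were kept by filterByExpr of edgeR 4.0.16 (R 4.3.3) with a minimum count of 10, which left 6943 of 24225 loci with a count. These held 84.5% to 87% of the counts of a library. CPM were computed from the deposited counts with TMM factors. Members were tested with edgeR's quasi-likelihood F test with robust dispersion, 1 mean for each of 12 groups of cultivar and tissue, no covariate, and Benjamini-Hochberg adjustment over all tested loci at 0.05. SE is the size of the log2 change over the root of its F value, and 95% intervals are the estimate plus or minus the normal quantile of that SE. The common biological coefficient of variation was 0.248. DESeq2 1.42.0 and limma 3.58.1 (voom) were alternatives, with RLE scaling, other filters, replicate blocks and each library left out in turn. The slopes within a cultivar and the contrast of AM1 and AM5 with AM3 were added after the data were examined. The test was also run on simulated counts, drawn independently with 1 common spread for all loci and no effect of the sets. That run cannot show how the sets bear on the p-values.

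Family sums are described without a test. Named are members called in any planned comparison, the 6 of each family with the highest mean CPM, and runs of neighbouring members, besides those said to be chosen after their values were seen. Libraries with the same number in both cultivars did not deviate together on average (mean correlation 0.00939 over 17 pairs, highest 0.123). This check cannot exclude a weak pairing of numbers across cultivars, and the labels state none. Libraries of a set within a cultivar deviated together (mean 0.157 over 85 pairs). No 2 libraries were alike enough to be 1 library (highest correlation 0.808). No listed member was found in the gene table used here (0 identifiers matched), so gene names, the other auxin pathway genes, tissue markers and sequences were not used here, and the tissue labels were not checked against markers. No label ties a library to a plant of its own: the p-values rest on the spread among these libraries, which may be technical.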

Additional observations from a re-analysis of the deposited data

Results flagged for a closer look

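Single libraries stood apart from the others of their tissue at 8 of 108 combinations of a tissue with a member or family sum. The rule was a gap to the nearest library larger than Dixon's 95% value for the group, which chance passes in about 1 of 20 groups. The cause of these gaps was not tested.

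NIL-MP3 AM2 replicate 10 had 131 CPM of LOC_Os01g13030, against 265 to 332 CPM in the other AM2 libraries. NIL-MP3 AM5 replicate 1 had 220 CPM of the same locus, against 118 to 156 CPM in the other AM5 libraries. NIL-MP3 AM3 replicate 3 had 105 CPM of LOC_Os02g13520, where the others had 13.2 to 45.3 CPM. LOC_Os06g22870 (Aux/IAA) stood at 162 CPM in NIL-MP3 AM1 replicate 11, against 54.0 to 93.1 CPM in the other AM1 libraries, and at 194 CPM in Takanari SAM replicate 6, against 91.4 to 106 CPM in the other SAM libraries.

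Among ARF loci, LOC_Os01g70270 had 718 CPM in Takanari AM5 replicate 13, against 408 to 524 CPM in the other AM5 libraries. LOC_Os12g29520 had 507 CPM in NIL-MP3 AM1 replicate 17, against 293 to 346 CPM in the other AM1 libraries. The ratio of Aux/IAA to ARF counts was 0.469 in NIL-MP3 AM2 replicate 4, against 0.512 to 0.535 in the other AM2 libraries.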

How the results depend on the processing

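Of 752 values of the 16 called member results under other settings, 0 changed sign and 93 missed the threshold. Most of these settings left out a single library and shared nearly all their data with the main fit, so a change of sign was unlikely. The 6 members with a slope became 3 with DESeq2, 3 without NIL-MP3 library numbers 7 to 12, 2 without NIL-MP3 numbers 13 to 18 and 2 without Takanari numbers 13 to 18. Without the AM5 libraries the 2 members for AM minus SAM became 0. When limma treated sets as a random effect, the 1 member between the cultivars became 0. Leaving out single libraries gave 2 to 7 members for the slope, 2 to 4 for AM5 minus AM1, 0 to 3 for AM minus SAM, 2 to 6 for AM5 minus SAM, 0 for AM1 minus SAM, 1 between the cultivars and 0 for the difference of slopes. The slope count was 2 without NIL-MP3 AM5 replicate 13 and 3 without NIL-MP3 AM5 replicate 7, Takanari AM1 replicate 17 or Takanari AM4 replicate 8. AM5 minus SAM gave 2 without NIL-MP3 SAM replicate 6, Takanari SAM replicate 12 or Takanari AM5 replicates 1 or 13. The cause was not tested. The AM5 over AM1 log2 ratio of the sums stayed between -0.60 and -0.46 for Aux/IAA and between -0.37 and -0.28 for ARF when single libraries were left out. As a replicate block, the sets gave 6 members for the slope with 3 levels and 7 with 6 levels, 1 in place of 0 for AM1 minus SAM with 6 levels (LOC_Os01g09450), 2 in place of 0 for the slope in NIL-MP3 (LOC_Os05g14180 and LOC_Os12g29520), and 1 in place of 0 for AM1 and AM5 minus AM3 (LOC_Os05g48870). With the library number as a block, the cultivar comparison kept its count of 1; these numbers do not pair samples by the labels.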
